A study of Drosophila melanogaster with 18 samples.

Results

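The semaphorins, their plexin receptors, the ephrin ligand and the Eph receptor form a pair of contact and short-range guidance systems, and 8 of their Drosophila melanogaster genes were followed here through every group of a study of the gene shep. They are the ligands Sema1a, Sema1b, Sema2a and Sema2b, the receptors PlexA and PlexB, the ligand Ephrin and the receptor Eph. All 8 were chosen by name from the 17402 genes of the deposited count table, with FlyBase identifiers matched to current symbols, and all 8 passed the filter on low counts in every comparison.

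Semaphorins are cues that turn growing axons and dendrites toward or away from a target, and plexins are the receptors that carry the cue to the actin skeleton through small GTPases. In the fly, Sema1a and Sema1b are held in the membrane and bind PlexA, whereas Sema2a and Sema2b are secreted and bind PlexB. Sema1a also acts as a receptor in its own right in some neurons. Ephrin, a membrane-bound ligand, binds the receptor tyrosine kinase Eph on a touching cell, and both cells can signal. These systems place axons in the embryo and again when larval circuits are rebuilt in the pupa.

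The study lowered shep (alan shepard), which encodes an RNA-binding protein, in neurons and in a cell line, with 3 libraries in each of 6 groups. Pupal RNAi and larval RNAi neurons were live neurons sorted from P14 pupae and from larvae of the third instar that carried elav-driven shep-RNAi, Dcr and mCD8::GFP. Pupal and larval control neurons came from animals with elav-driven Dcr and mCD8::GFP but no shep-RNAi, so that Dcr and the membrane GFP were shared by all neuron groups and elav, a pan-neuronal driver, set which cells were marked. BG3 cells (BG3-c2, a line grown from the larval nervous system) received dsRNA against shep or, as the control, dsRNA against GFP. The labels do not say whether libraries of a group came from separate animals or cultures, so the spread behind every p-value is that between these libraries and may be technical. Total counts per library were, for pupal neurons, 7392299 to 10607171 with RNAi and 8548493 to 9445025 without, and for larval neurons 9134690 to 10793289 with RNAi and 9984725 to 12910603 without. In BG3 cells they were 3651214 to 5081610 with shep dsRNA and 3141100 to 3203392 with GFP dsRNA. All 3 shep dsRNA libraries were therefore deeper than all 3 of their controls.

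The targeted gene was lower in every knockdown group. In pupae shep had 1310.1, 1024 and 1022 CPM (read counts relative to library size, scaled by TMM over all 18 libraries) in RNAi neurons, against 1835, 2241 and 2217 CPM in control neurons. In larvae it had 580.3, 514 and 551 CPM in RNAi neurons, against 1326, 1502 and 1593 CPM in control neurons. In BG3 cells it had 175, 143 and 189 CPM with shep dsRNA, against 351, 335 and 378 CPM with GFP dsRNA. No library of a knockdown group overlapped its controls, and the log2 fold changes were -0.92 ± 0.10 in pupal neurons, -1.44 ± 0.11 in larval neurons and -1.08 ± 0.09 in BG3 cells (standard error, edgeR). The labels were also set against 7 neuronal marker genes: their summed level in pupae was 20715 to 22732 CPM with RNAi and 22239 to 25806 CPM without, in larvae 4979 to 5204 CPM with RNAi and 4499 to 4921 CPM without, and in BG3 cells 99.1 to 123 CPM with shep dsRNA and 97.8 to 114 CPM with GFP dsRNA. All 7 were lower in BG3 cells with GFP dsRNA than in larval control neurons, and Gad1 had no count with shep dsRNA. In BG3 cells 2 of the 7 passed the filter on low counts, elav among them, so the neuronal markers were low there but not all absent.

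The genes sit in 3 places of the dm6 genome, given here in the coordinates of Ensembl release 115. Sema1a (FBgn0011259) lies on 2L from 8542147 to 8672041 on the plus strand and spans 129895 bases, the longest of the 8. Sema2b (FBgn0264273) and Sema2a (FBgn0011260) are near neighbours on 2R, from 16386524 to 16431758 and from 16500178 to 16533459, both on the plus strand, with 68419 bases and 11 annotated genes between them. Sema1b (FBgn0016059) is on the same arm from 17672839 to 17683499 on the minus strand. The other 4 are all on the small chromosome 4: PlexB (FBgn0025740) from 32478 to 43778 on the minus strand, Ephrin (FBgn0040324) from 571755 to 580122 and Eph (FBgn0025936) from 610684 to 622470 on the plus strand, and PlexA (FBgn0025741) from 1009895 to 1027101 on the minus strand. Ephrin and Eph, ligand and receptor, are 30561 bases apart with 3 genes between them. Counting by strand is not stated, and the antisense gene asRNA:CR45124 shares 388 bases, 5.50%, of the exonic sequence of PlexB; it had 0 to 7 counts in each library. Of the other counted genes within members, lncRNA:CR43855 and a pair of tRNA genes in Sema1a and Menl-1 and Menl-2 in Sema2b, none shared exonic bases. Annotated transposable elements, which were not counted, did. An INE-1 element shares 519 bases, 4.89%, of the exonic sequence of PlexA, and another shares 342 bases, 5.94%, of that of Eph. Their part in the counts of PlexA and Eph was not tested.

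Levels of different genes were compared per kilobase of exonic sequence. In neurons of both stages Sema1a was the most abundant of the 8, at 180.06 ± 8.39 and 158 ± 19.7 CPM per kb in RNAi and control neurons of pupae and 166 ± 5.37 and 155 ± 6.71 CPM per kb in those of larvae (SD, n = 3 each). PlexA, its plexin receptor, came next, at 82.2 ± 4.97 and 89.3 ± 7.03 CPM per kb in pupal RNAi and control neurons and 63.1 ± 2.04 and 64.8 ± 4.78 CPM per kb in larval RNAi and control neurons; it overlapped Ephrin in pupal RNAi neurons and stood apart from it in the other neuron groups. By mean level per kb of exonic sequence, Ephrin and Eph followed in every neuron group, though Eph overlapped Sema2a in pupal control neurons. Ephrin and Eph stood at 80.6 ± 0.694 and 62.1 ± 1.18 CPM per kb in pupal RNAi neurons. In larval control neurons they stood at 49.965 ± 3.17 and 47.2 ± 4.02 CPM per kb, where their libraries overlapped. With the length of the coding sequence in place of exonic length, Ephrin moved above PlexA in neurons. Sema2b then stood above Eph in pupal RNAi neurons without overlap, and Sema2a and Sema2b had higher means than Eph in pupal control neurons. With the length of the longest transcript, Sema2a had a higher mean than Eph in both pupal groups, and than Ephrin in pupal control neurons with overlap. The order of PlexA, Ephrin, Eph, Sema2a and Sema2b in neurons therefore depends on the length used.

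The lower end of the order differed between stages. In pupal neurons Sema1b was the scarcest, at 14.6 ± 0.635 CPM per kb in RNAi and 12.6 ± 0.879 in control libraries, below PlexB at 30.6 ± 1.05 and 29.5 ± 4.92. In larval neurons PlexB was the scarcest, at 21.8 ± 0.552 CPM per kb in RNAi and 20.5 ± 1.45 in control libraries. There Sema1b, at 39.6 ± 0.623 and 37.1 ± 2.62 CPM per kb in RNAi and control libraries, could not be told from Sema2a, at 39.9 ± 1.29 and 38.6 ± 1.13, or Sema2b, at 39.5 ± 0.986 and 37.5 ± 3.32, since the libraries of these 3 genes overlapped. That tie holds for exonic length: with the length of the longest transcript, Sema2a stood above Sema1b without overlap in both larval groups. With coding length Sema1b stood above Sema2a instead, at 78.3 and 73.8 CPM per kb in larval RNAi neurons without overlap. In larval control neurons the values were 73.3 and 71.4 CPM per kb, with overlap. BG3 cells had a different order: PlexA and Sema2a led, at 36.8 ± 2.91 and 43.1 ± 1.97 CPM per kb with shep dsRNA and 42.5 ± 2.99 and 39.1 ± 3.92 with GFP dsRNA, and Sema2b was last, at 1.49 ± 0.158 and 1.19 ± 0.568 CPM per kb.

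**Figure D1:**
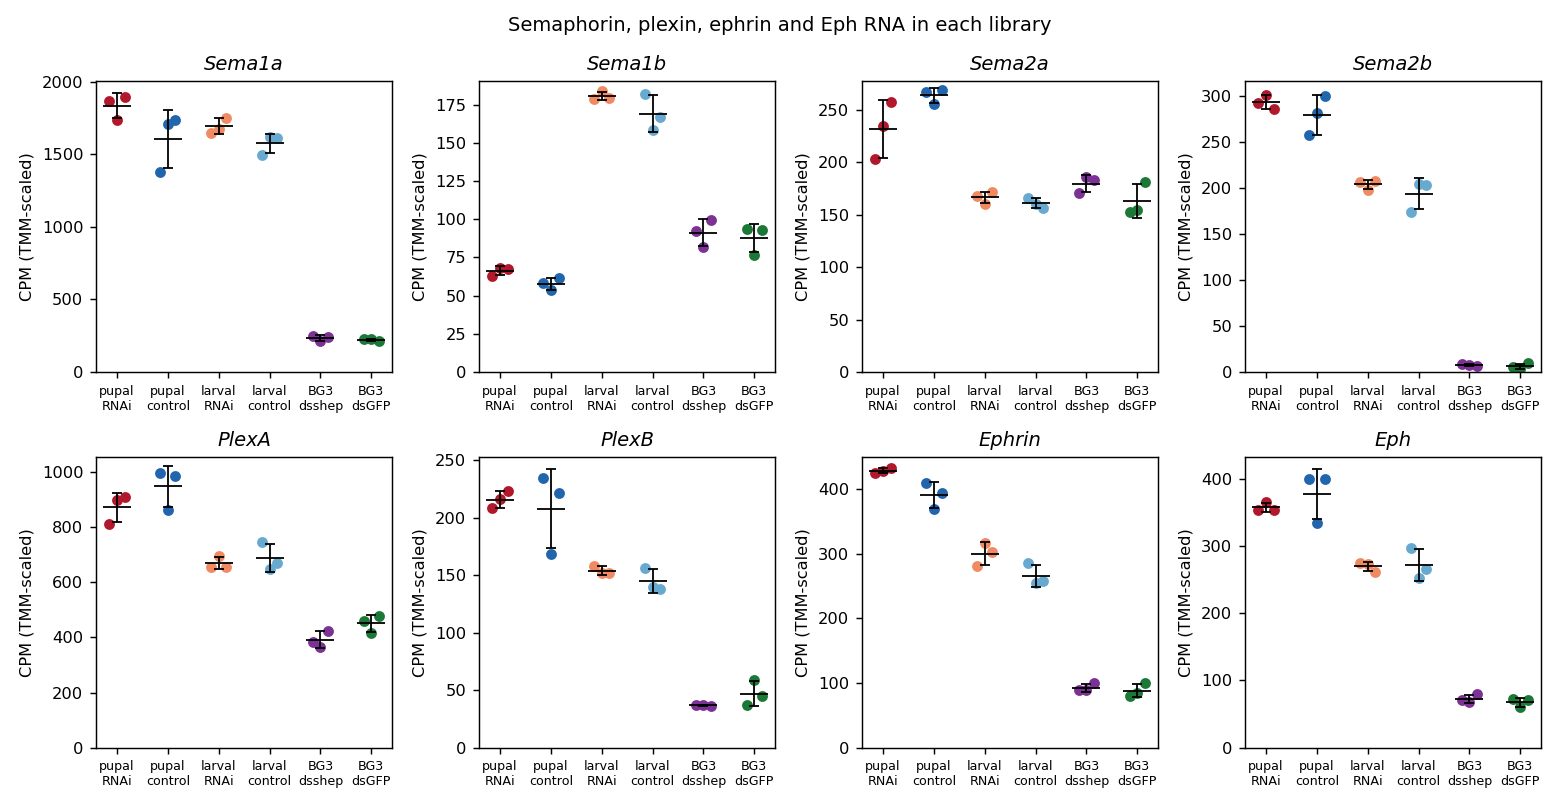
Level of each gene in each library in CPM after TMM scaling over all 18 libraries (vertical axes, each starting at 0), by group (horizontal axes); points are libraries, the bar is the mean and the error bar the SD of 3. Knockdown and control groups of a stage lie close together for all 8 genes, whereas Sema1b is lower in pupae, at 53.4 to 68.4 CPM, than in larvae, at 159 to 184 CPM, and Sema2b is at 3.5 to 9.3 CPM in BG3 cells.

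The first question was whether lowering shep changed these genes. In pupal neurons none of the 8 passed an adjusted p under 0.05 (edgeR quasi-likelihood test, Benjamini-Hochberg over 8784 genes), where 7.65% of all genes did. DESeq2 and limma-voom also called 0, and 2 of the 8 had an unadjusted p under 0.05. The log2 fold changes ran from -0.20 to 0.19, and the 95% intervals of the 8 together covered folds from 0.773 to 1.30. In larval neurons 0 of the 8 passed by any of the 3 tools, beside 0.364% of all genes by edgeR, and 0 had an unadjusted p under 0.05. There the log2 fold changes ran from -0.054 to 0.16 and the intervals covered folds from 0.847 to 1.25.

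Of the membrane-bound semaphorins, Sema1b had 63.1, 68.4 and 67.8 CPM in pupal RNAi neurons, against 58.3, 53.4 and 61.3 CPM in pupal control neurons. The groups did not overlap, but the log2 fold change of 0.19 ± 0.09 did not pass (adjusted p = 0.197, edgeR), and the exact permutation test gave its smallest possible p of 0.1. Sema1a had 1870.4, 1737 and 1897 CPM in pupal RNAi neurons, against 1377, 1708 and 1739 CPM in pupal control neurons. Only the first control library was far below the RNAi libraries, and the groups overlapped narrowly. In larvae Sema1a had 1647, 1678 and 1753 CPM in RNAi neurons, against 1497, 1620.1 and 1609.7 CPM in control neurons. These groups did not overlap, and the log2 fold change was 0.090 ± 0.094 (adjusted p = 0.877, edgeR).

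The secreted semaphorin Sema2a had the lowest value of the pupal response. It had 203, 235 and 258 CPM in pupal RNAi neurons, against 267, 256 and 269.6 CPM in pupal control neurons. The third RNAi library lay within the control range and the first well below it, and the log2 fold change was -0.20 ± 0.08 (unadjusted p = 0.0253, adjusted p = 0.151, edgeR). Without pupal RNAi replicate 3 the value was -0.29 and passed (adjusted p = 0.0446), and without pupal RNAi replicate 1 it was -0.10 (adjusted p = 0.568). In larvae Sema2a had 168, 161 and 171 CPM in RNAi neurons, against 166, 160.0 and 157 CPM in control neurons, a log2 fold change of 0.033 ± 0.083, with overlap. Its pupal response minus its larval response was -0.23 ± 0.12 on the log2 scale (adjusted p = 0.49, edgeR). No member passed this test of the stage difference by edgeR, DESeq2 or limma-voom, 0 had an unadjusted p under 0.05, and 0.364% of all genes passed it by edgeR. Sema2b, which in the embryo acts as an attractant where Sema2a repels, had 293, 302 and 287 CPM in pupal RNAi neurons, against 257, 281 and 301 CPM in pupal control neurons, with overlap and a log2 fold change of 0.059 ± 0.076.

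Among the receptors, PlexA had 812, 897 and 909 CPM in pupal RNAi neurons, against 996, 862 and 984 CPM in pupal control neurons. PlexB had 208, 216 and 223 CPM in pupal RNAi neurons, against 234, 169 and 221 CPM in pupal control neurons, where the second control library was the lowest of the 6. The log2 fold changes were -0.13 ± 0.09 for PlexA and 0.040 ± 0.096 for PlexB, and both pairs of groups overlapped. Without pupal control replicate 2, PlexB gave -0.089. Eph had 353, 365 and 354 CPM in pupal RNAi neurons, against 399, 334 and 399 CPM in pupal control neurons, a log2 fold change of -0.089 ± 0.084 with overlap. Its ligand Ephrin had 425, 428 and 432 CPM in pupal RNAi neurons, against 409, 369 and 394 CPM in pupal control neurons, which did not overlap, a log2 fold change of 0.12 ± 0.08 (adjusted p = 0.408, edgeR). In larvae Ephrin gave the highest of the 8 values, 0.16 ± 0.08, with 280.4, 316 and 302 CPM in RNAi neurons, against 285, 254 and 257 CPM in control neurons, with adjusted p = 0.599 and overlapping groups.

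In BG3 cells shep dsRNA also called none of the 8, beside 5.41% of the 6816 genes tested by edgeR, and DESeq2 and limma-voom called 0. Both plexins had an unadjusted p under 0.05 and lower values. PlexA had 382, 365 and 425 CPM with shep dsRNA, against 461, 416 and 477 CPM with GFP dsRNA, a log2 fold change of -0.22 ± 0.07 (adjusted p = 0.0793, edgeR). PlexB had 37.0, 37.2 and 36.1 CPM with shep dsRNA, against 37.5, 58.7 and 45.0 CPM with GFP dsRNA, a log2 fold change of -0.37 ± 0.13 (adjusted p = 0.104, edgeR). The PlexA groups overlapped, while the PlexB groups were separated by less than 1 CPM and the second control library stood above the rest. Left out one at a time, that library, GFP dsRNA replicate 2, gave PlexB -0.18 (adjusted p = 0.423) and PlexA -0.27, which passed (adjusted p = 0.0124), and GFP dsRNA replicate 1 gave PlexB -0.50, which passed (adjusted p = 0.0369). PlexA also passed once the trend with gene length was removed (-0.30, adjusted p = 0.00318) and PlexB with no filter on low counts (-0.34, adjusted p = 0.0396). A replicate block called PlexA too, though whether replicate numbers pair the BG3 libraries is not settled. The 6 other genes had log2 fold changes from 0.045 to 0.30, and the widest interval was that of Sema2b, counted 35 to 56 times with shep dsRNA and 13 to 38 times with GFP dsRNA per library.

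**Figure D2:**
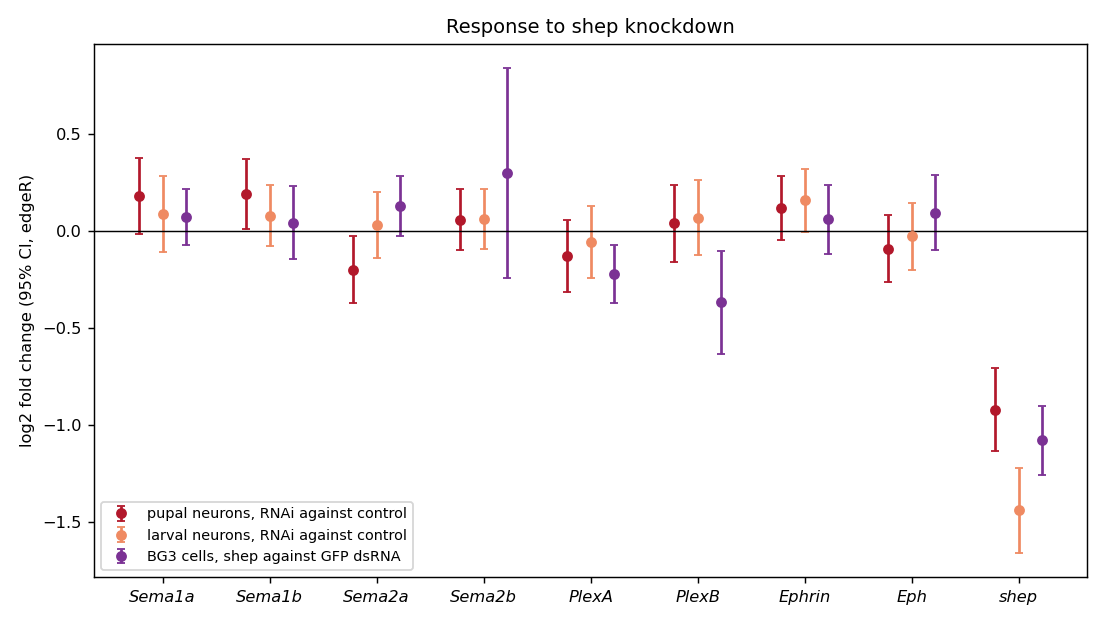
Log2 fold change on shep knockdown with its 95% interval (edgeR, vertical axis) for the 8 genes and for shep (horizontal axis), in pupal neurons, larval neurons and BG3 cells. The intervals of the 8 genes run from -0.63 for PlexB to 0.84 for Sema2b, both in BG3 cells, and those of Sema1b and Sema2a in pupal neurons and of PlexA and PlexB in BG3 cells leave out 0 before any adjustment, whereas those of shep lie at -0.70 or below.

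The sums of glial and hemocyte markers were lower in pupal RNAi libraries without overlap, though no single marker of either list passed. The summed level of 8 glial markers was 702 to 931 CPM in pupal RNAi and 939 to 1056 CPM in pupal control libraries, with 0 of the 6 tested markers called by edgeR and 1 with an unadjusted p under 0.05, and none at 0. The summed level of 8 hemocyte markers was 263 to 282 CPM in pupal RNAi and 312 to 353 CPM in pupal control libraries, with 0 of the 3 tested called by edgeR and 2 with an unadjusted p under 0.05. He had no count in any pupal library, and NimC1 and eater had none in pupal control libraries. Of the 7 neuronal markers edgeR called 3 lower and 0 higher, where 7.65% of all genes were called. Their log2 fold changes ran from -0.65 to 0.18, with a median of -0.30. The sums of the other lists overlapped between pupal RNAi and pupal control libraries, with muscle markers at 502 to 619 and 504 to 562 CPM, neuroblast markers at 8.97 to 12.5 and 10.5 to 12.92 CPM, and tracheal and epidermal markers at 4.796 to 8.26 and 3.45 to 5.54 CPM, and edgeR called 0 of these. In bulk RNA, fewer cells of a type and less RNA per cell cannot be told apart, and the part of these markers in the values above was not tested.

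Ratios of 2 genes within a library do not depend on the factor that scales the library, but do not cancel a trend with gene length. Eph over Ephrin, receptor over ligand per kb, was 0.771 ± 0.0164 in pupal RNAi and 0.890 ± 0.0501 in pupal control neurons, and 0.833 ± 0.0596 in larval RNAi and 0.944 ± 0.0261 in larval control neurons (SD, n = 3 each). PlexA over PlexB was 2.69 ± 0.0846 in pupal RNAi and 3.06 ± 0.297 in pupal control neurons, and 2.89 ± 0.145 in larval RNAi and 3.16 ± 0.0675 in larval control neurons. Both ratios were lower in RNAi neurons at both stages without overlap. Each comparison gave p = 0.1 in a 2-sided exact permutation test, the smallest that 3 against 3 libraries allow, and 0.205 after Benjamini-Hochberg adjustment over the 78 ratio and share comparisons made. In BG3 cells neither of these ratios was separated by shep dsRNA: Eph over Ephrin was 0.726 ± 0.0225 with shep dsRNA and 0.714 ± 0.0965 with GFP dsRNA, and PlexA over PlexB was 7.07 ± 0.670 and 6.63 ± 1.76. Sema1a over PlexA was separated there, at 0.630 ± 0.0482 with shep dsRNA and 0.517 ± 0.0482 with GFP dsRNA. So was Sema2a over PlexB, at 8.28 ± 0.419 and 6.05 ± 1.39 (exact permutation p = 0.1 each). Both overlapped between RNAi and control neurons at each stage. Eph over Ephrin and PlexA over PlexB were not alone in separating the pupal groups. The shares of Sema1a, of Sema2a and of the membrane-bound semaphorins, and Sema2a over Sema1b, also separated pupal RNAi from pupal control libraries. In larval neurons no other share or ratio compared did so. How often other pairs of genes separate in this way was not tested.

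**Figure D3:**
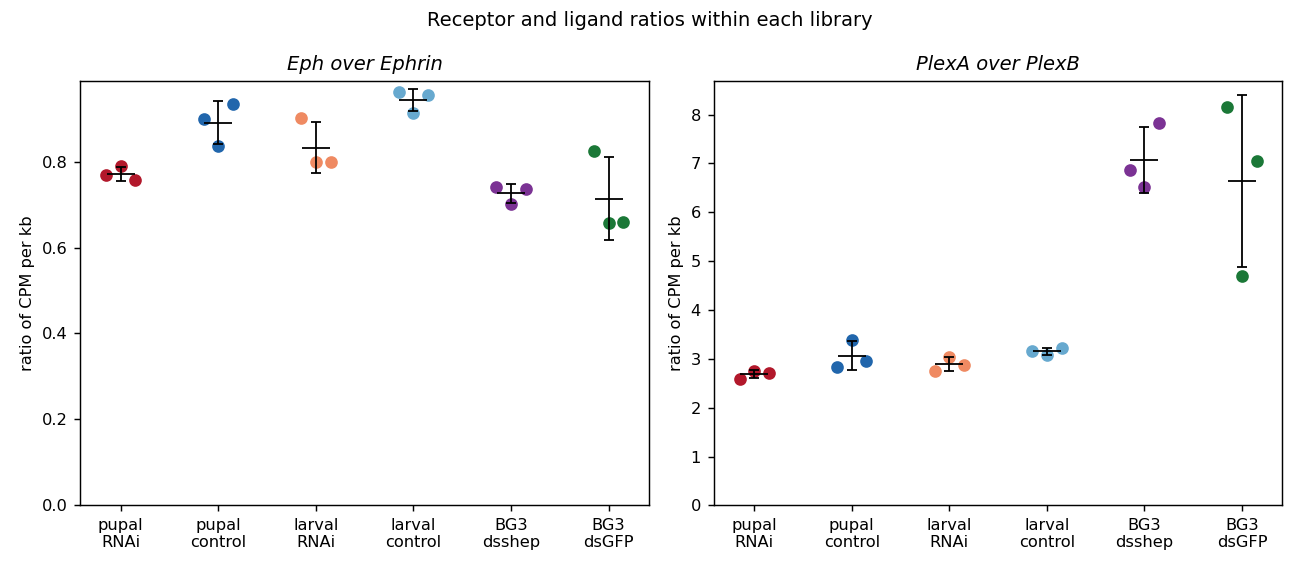
Ratio of Eph to Ephrin (left) and of PlexA to PlexB (right) in CPM per kb (vertical axes from 0) in each library by group; points are libraries, the bar is the mean and the error bar the SD of 3. At each stage the RNAi neurons lie below the control neurons in both panels, for example 0.757 to 0.789 against 0.836 to 0.934 for Eph over Ephrin in pupae, while the BG3 groups overlap.

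The next comparison was between stages. Sema1b fell in pupae: it had 58.3, 53.4 and 61.3 CPM in pupal control neurons, against 182, 159 and 167 CPM in larval control neurons. The libraries were far from overlapping, and the log2 fold change was -1.55 ± 0.08 (adjusted p = 8.57e-15, edgeR). RNAi neurons gave -1.44 ± 0.08 (adjusted p = 3.58e-14, edgeR), and Sema1b was called lower at both in all 12 settings tried, with values from -2.30 to -1.53 in control neurons. With TMM scaling 6 others rose in pupal control neurons, where 39.0% of all genes were called higher, 44.3% lower and 83.3% in either direction. Sema2a rose most, by 0.72 ± 0.08, with 267, 256 and 269.6 CPM in pupal control neurons, against 166, 160.0 and 157 CPM in larval control neurons. The other rises were 0.57 ± 0.08 for Ephrin, 0.54 ± 0.08 for Sema2b, 0.53 ± 0.10 for PlexB, 0.48 ± 0.08 for Eph and 0.47 ± 0.09 for PlexA, and Sema1a, at 0.037 ± 0.094, did not pass.

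These 6 rises depend on the scaling of libraries, which differed by stage: TMM factors were 0.662 to 0.747 in pupal and 1.09 to 1.22 in larval libraries. The median log2 fold change of all genes was -0.16 with TMM, -0.66 with upper-quartile scaling and -0.91 with library totals alone. With library totals 0 members were called higher and 6 lower, and with upper-quartile scaling 1, Sema2a, was called higher and 2, Sema1a and Sema1b, lower. The split of all called genes moved likewise, with 46.9% higher under TMM, 34.8% under upper-quartile scaling and 29.6% under library totals. Each of these scalings applies the same factor to all genes of a library. The order of the members relative to the median gene of a fit was therefore fixed in advance. With TMM, Sema2a stood 0.89 above that median, Ephrin 0.73, Sema2b 0.70, PlexB 0.69, Eph 0.65, PlexA 0.63 and Sema1a 0.20. Sema1b stood 1.38 below it, at -1.38. Removing the trend with gene length within each library moved the long genes: Sema1a was then called lower (-0.72), as was PlexA (-0.30), PlexB stood at -0.042 and Eph at 0.089, while Sema2a (0.59), Ephrin (0.25) and Sema2b (0.24) were still called higher.

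In RNAi neurons the stage comparison called the same count of members, 6 higher and 1 lower, beside 38.7% of all genes higher, 43.7% lower and 82.4% in either direction. The rises with TMM were 0.53 ± 0.08 for Sema2b, 0.53 ± 0.08 for Ephrin, 0.50 ± 0.10 for PlexB, 0.49 ± 0.08 for Sema2a, 0.42 ± 0.08 for Eph and 0.39 ± 0.09 for PlexA, and with library totals all 8 were called lower. Marker genes of other cells also differed by stage. Neuroblast markers summed to 10.5 to 12.92 CPM in pupal control and 289 to 417 CPM in larval control libraries, with all 6 lower in pupae, glial markers to 939 to 1056 and 130 to 161 CPM, and muscle markers to 504 to 562 and 38.4 to 48.2 CPM. Single markers did not all follow these sums: of 6 glial markers tested 3 were higher and 2 lower in pupae, and of 5 muscle markers 1 was higher and 3 lower, with a median log2 fold change of -1.20. Neuronal markers were higher in pupae for 6 of 7. None of these markers was at 0 at either stage, and their part in the stage values was not tested.

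**Figure D4:**
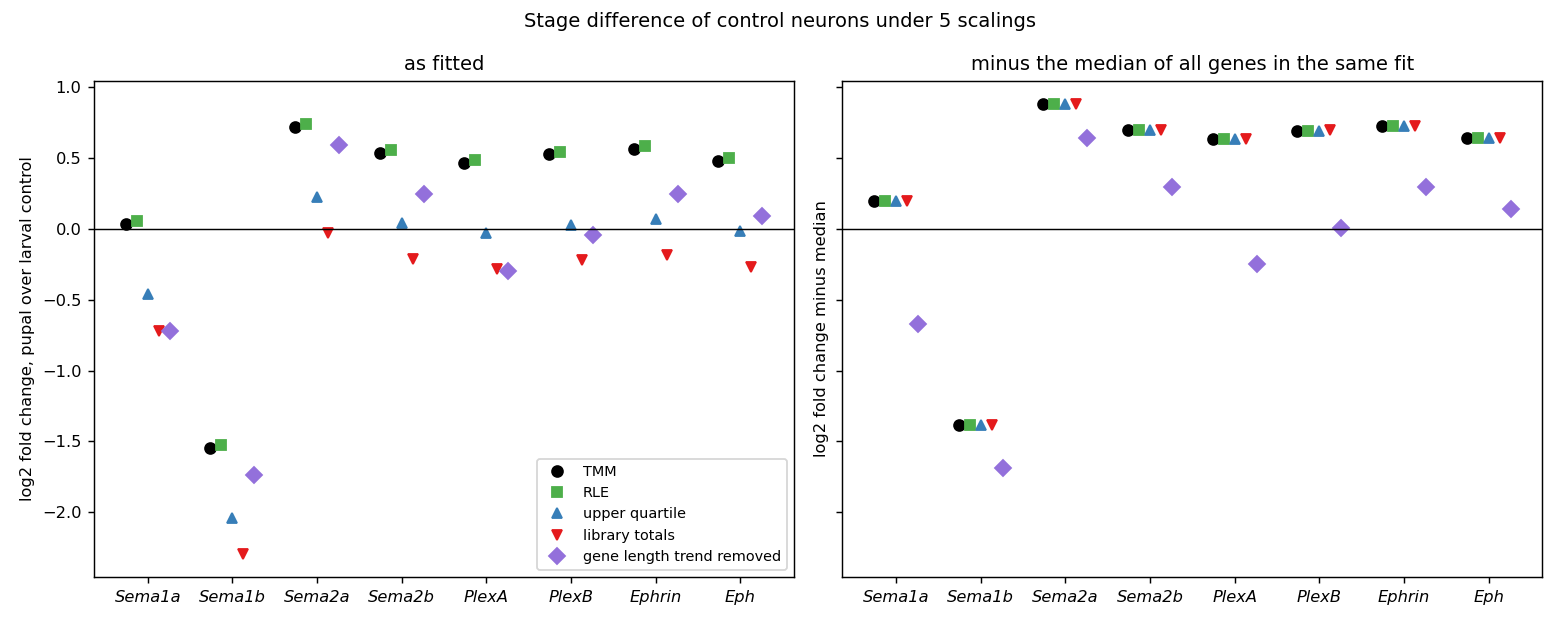
Log2 fold change of pupal over larval control neurons (vertical axes) for the 8 genes (horizontal axes) under 5 scalings, as fitted (left) and after subtracting the median of all genes in the same fit (right). On the left all rises of 0.47 to 0.72 with TMM turn to values below 0 with library totals, from -0.029 for Sema2a to -0.28 for PlexA. Sema1b stays at -1.53 or below. On the right the first 4 scalings coincide by construction, since each applies the same factor to all genes of a library.

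The makeup of the semaphorin RNA differed by stage whatever factor scaled each library, since shares are taken within a library. The shares rest on exonic length and do not cancel a trend with gene length. With that trend removed, Sema1a was called lower in pupal than in larval control neurons (log2 fold change -0.72). Sema1b made up 4.41 ± 0.459% of the summed CPM per kb of the 4 semaphorins in pupal control neurons and 13.9 ± 1.31% in larval control neurons. Sema2a made up 22.1 ± 2.05% in pupal control and 14.4 ± 0.773% in larval control neurons, and Sema2b 18.8 ± 0.314% and 13.997 ± 0.913%. The membrane-bound semaphorins together held 59.1 ± 2.26% in pupal control and 71.6 ± 0.225% in larval control neurons, with Sema1a at 54.7 ± 2.71% and 57.7 ± 1.13%. Sema2a over Sema1b per kb was 5.02 ± 0.219 in pupal control and 1.04 ± 0.0545 in larval control neurons. Per kb of exonic sequence, RNA of the secreted Sema2a and the membrane-bound Sema1b was thus about equal in larvae and far apart in pupae. Each of these differences except the share of Sema1a was free of overlap, with exact permutation p = 0.1. In pupal RNAi neurons Sema2a over Sema1b was 3.82 ± 0.326, below all pupal control libraries, and the membrane-bound share was 63.4 ± 1.71%, above all of them, again with exact permutation p = 0.1 each.

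**Figure D5:**
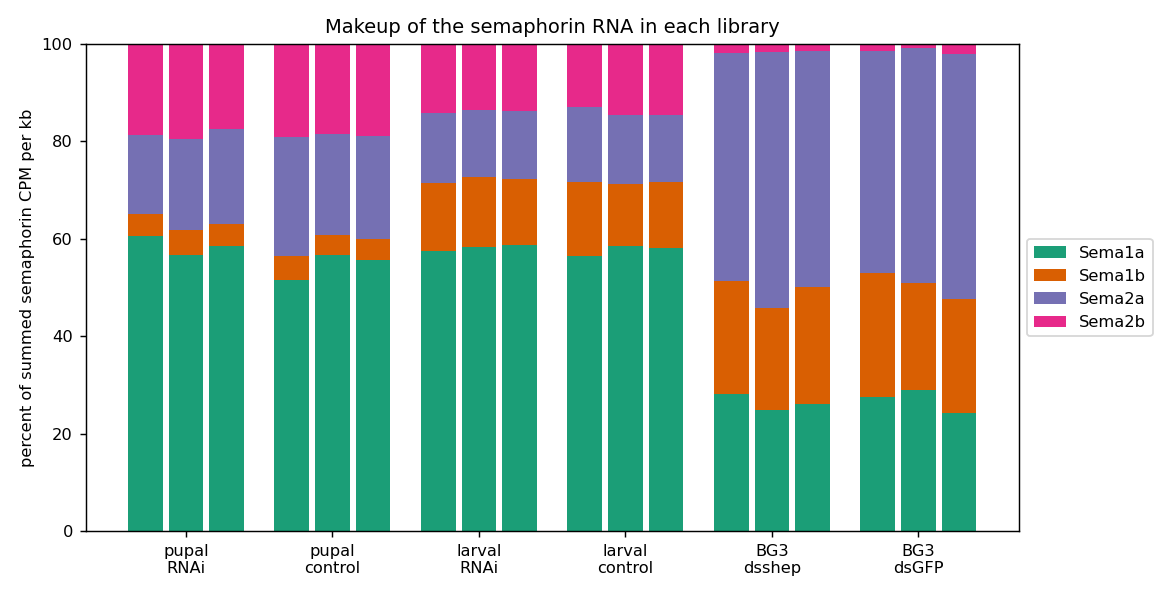
Share of each semaphorin in the summed semaphorin CPM per kb (vertical axis, percent) in each of the 18 libraries (bars), by group. Sema1b holds 3.96% to 4.99% in pupal and 12.8% to 15.3% in larval libraries, and Sema2a holds 45.5% to 52.4% in BG3 libraries, where Sema2b nearly vanishes.

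BG3 cells with GFP dsRNA were set against larval control neurons, a comparison of a cell line with sorted cells that differ in origin, culture and depth at once. Of the 8 genes 7 were lower and 0 higher, beside 45.4% of all 9439 genes lower, 37.0% higher and 82.5% in either direction. Sema2b was lowest relative to neurons: it had 5.8, 3.5 and 9.3 CPM in BG3 cells, against 174, 204 and 203 CPM in larval control neurons. Its log2 fold change was -4.96 ± 0.15 (adjusted p = 2.56e-26, edgeR). Sema1a followed at -2.82 ± 0.10, Eph at -2.004 ± 0.09, PlexB at -1.62 ± 0.12, Ephrin at -1.59 ± 0.09, Sema1b at -0.95 ± 0.09 and PlexA at -0.61 ± 0.09, and PlexA turned to 0.62 and was called higher once the trend with gene length was removed. Sema2a, the exception, had 153, 154 and 182 CPM in BG3 cells, against 166, 160.0 and 157 CPM in larval control neurons, with overlap and a log2 fold change of 0.017 ± 0.085 (95% interval -0.16 to 0.19); it was called higher with upper-quartile scaling (0.24) and with the length trend removed (0.64).

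PlexA and Sema2a, the most abundant of the 8 in BG3 cells per kb of exonic sequence, are not textbook partners of each other. Per kb of coding sequence Sema1a, at 69.4 ± 5.50 CPM, overlapped PlexA, at 66.96 ± 5.29 CPM, with shep dsRNA. PlexA over PlexB per kb was 6.63 ± 1.76 in BG3 cells with GFP dsRNA and 3.16 ± 0.0675 in larval control neurons, while Sema1a over PlexA was 0.517 ± 0.0482 and 2.40 ± 0.270. Sema2a made up 48.0 ± 2.34% of the semaphorin CPM per kb in BG3 cells and 14.4 ± 0.773% in larval control neurons, and Sema2b 1.44 ± 0.600% and 13.997 ± 0.913%. All 4 differences were free of overlap (exact permutation p = 0.1 each). BG3 cells with GFP dsRNA had 1581 to 1679 CPM of hemocyte markers and larval control neurons 39.2 to 47.8 CPM, with 4 of 5 tested markers higher and He at 0 with GFP dsRNA, and 490 to 551 and 130 to 161 CPM of glial markers, of which 3 of 7 tested were higher and 2 lower, with a median log2 fold change of -0.090. The part of these markers in the BG3 values was not tested.

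The wider semaphorin and plexin pathway was described by a list of 19 genes taken as partners of these ligands and receptors, 18 of them tested in neurons. In pupal neurons shep RNAi called 3 higher and 0 lower, where 7.65% of all genes were called (306 higher and 366 lower of 8784), with a list median of 0.18 beside 0.0064 for all genes. They were nvy, a PKA anchoring protein that acts with PlexA, at 0.38 (64.7 ± 3.95 CPM in RNAi and 49.3 ± 1.79 CPM in control neurons, adjusted p = 0.0108, edgeR), Moe, which ties actin to the membrane, at 0.35 (adjusted p = 0.0343), and 14-3-3epsilon, which opposes PlexA signalling, at 0.45 (adjusted p = 0.0346). The fourth, the PKA subunit Pka-C1, had 0.27 and did not pass (adjusted p = 0.0752). The calls rested on few libraries. That of nvy was lost without pupal RNAi replicate 3 or pupal control replicate 3 (highest adjusted p 0.0538), that of Moe without replicate 1 or 2 of either pupal group (0.193), and that of 14-3-3epsilon without pupal RNAi replicate 1, 2 or 3, larval RNAi replicate 2 or pupal control replicate 1 or 3 (0.226), with log2 fold changes from 0.27 to 0.60 in these 3 genes. The call of Moe was also lost with limma-voom, no filter on low counts, only the groups compared, removal of the length trend, thinning and library totals. That of 14-3-3epsilon was also lost with RLE scaling and removal of the length trend. DESeq2 called 6 higher and 1 lower in this list, and removal of the length trend left 1 higher and 1 lower. Among all called genes 45.5% were higher, 63.1% with upper-quartile scaling and 32.8% with the length trend removed. In larval neurons edgeR, DESeq2 and limma-voom called 0 of this list, and 1 had an unadjusted p under 0.05.

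In BG3 cells, where 5.41% of all genes were called (228 higher and 141 lower of 6816), 2 of the 17 tested partners rose and 0 fell: kuz, a metalloprotease that sheds guidance receptors, by 0.40 (538 ± 19.7 CPM with shep dsRNA and 405 ± 18.5 CPM with GFP dsRNA, adjusted p = 8.16e-04, edgeR), and otk, a receptor-like protein that associates with PlexA, by 0.33 (adjusted p = 0.00698). The call of otk was lost without GFP dsRNA replicate 1 or shep dsRNA replicate 2, with values from 0.29 to 0.39 and adjusted p up to 0.0580. In pupal against larval control neurons 9 of the 18 partners were higher and 8 lower with TMM, beside 39.0% and 44.3% of all genes, and 6 and 11 with library totals. The 4 with the smallest p were otk (-5.06), SelR, the reductase that reverses actin oxidation by Mical (4.15), Moe (-3.21) and the PKA subunit Pka-R2 (3.26). Their levels in CPM were 13.2 ± 1.89 in pupal and 444 ± 29.0 in larval control neurons for otk, and 438 ± 26.9 and 24.9 ± 3.53 for SelR. BG3 cells against larval control neurons had 3 partners higher and 11 lower, beside 37.0% and 45.4% of all genes, and 8 and 7 with the length trend removed, among them Moe (2.82), CRMP (-3.48) and nvy (-5.20).

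Of 7 genes linked to Eph and Ephrin, pupal shep RNAi called Vap33, whose product's domain is a ligand of Eph receptors, at 0.31 (adjusted p = 0.0494, edgeR), and BG3 dsRNA called it at 0.25 (adjusted p = 0.0213), where 7.65% and 5.41% of all genes were called. Both calls were weak: leaving out 1 library kept that in pupae in 2 of 12 fits (0.19 to 0.39, adjusted p up to 0.308), losing it for every pupal RNAi and larval RNAi library, pupal control replicates 1 and 3 and larval control replicates 2 and 3, and that in BG3 cells in 1 of 6 fits, the one without GFP dsRNA replicate 2 (0.24 to 0.27, adjusted p up to 0.110). In larval neurons 0 of the 7 passed by edgeR, DESeq2 or limma-voom and 1 had an unadjusted p under 0.05. Between stages 2 of the 7 rose and 3 fell with TMM in control neurons, beside 39.0% and 44.3% of all genes, and 1 rose and 5 fell with library totals. The 4 with the smallest p with TMM were the guanine exchange factor Exn, which acts with Eph, at 3.79, and the adaptor dock at -1.55, the kinase Src64B at -1.91 and the phosphatase Ptp61F at -1.20.

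Of 27 other guidance ligands and receptors, 7 rose and 2 fell under pupal RNAi, where 7.65% of all genes were called. This list and those above were chosen with earlier results of these data known, so such counts are no test of an excess. The 4 with the smallest p were unc-5, a Netrin receptor for repulsion, at -0.42 (89.2 ± 3.04 CPM in RNAi and 119 ± 4.10 CPM in control neurons, adjusted p = 0.00230, edgeR), the Netrin ligand NetA at 0.70 (15.4 ± 1.26 and 9.31 ± 0.739 CPM, adjusted p = 0.00420), the adhesion molecule sdk at 0.45 (adjusted p = 0.00423) and the adhesion molecule Fas2 at 0.32 (adjusted p = 0.00591). All 4 were called in all 12 fits that left out 1 library. Larval RNAi called 0 of the 27 by edgeR and 1 each by DESeq2 and limma-voom, and 4 had an unadjusted p under 0.05. In BG3 cells, where 5.41% of all genes were called by edgeR, 3 of 22 rose and 0 fell. They were the Netrin receptor fra at 0.39 (adjusted p = 0.00268, called in all 6 fits), Fas2 at 0.35 (adjusted p = 0.00609) and the adhesion molecule Fas3 at 0.49 (adjusted p = 0.0474). Without shep dsRNA replicate 1 Fas2 gave 0.27 and was lost (adjusted p = 0.0812). Of the fits that left out 1 library, only that without GFP dsRNA replicate 2 kept Fas3 (0.40 to 0.63 over these fits). Fas3 was also lost with DESeq2, a filter of at least 1 CPM in 3 libraries, removal of the length trend, thinning and upper-quartile scaling. Between stages 9 of 27 rose and 13 fell with TMM in control neurons, beside 39.0% and 44.3% of all genes, and 5 rose and 20 fell with library totals. The 4 with the smallest p were Ptp69D (-2.65), Con (2.32), kek1 (2.01) and Lar (1.62) with TMM.

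Because PlexA, PlexB, Eph and Ephrin lie on chromosome 4, they were read beside the other genes of that chromosome. Of the 87 others tested in neurons, 56 were higher and 19 lower in pupal than in larval control neurons, beside 39.0% and 44.3% of all genes, with a median log2 fold change of 0.74 beside -0.16 for all genes, and the 4 members stood between 0.47 and 0.57. With library totals 33 of the 87 were higher and 32 lower. In BG3 cells against larval control neurons 15 of the 87 were higher and 62 lower, beside 37.0% and 45.4% of all genes, with a median of -1.49 beside -0.23 for all genes. Pupal RNAi called 6 higher and 5 lower of the 87, beside 7.65% of all genes, larval RNAi called 0 by edgeR and DESeq2 and 1 by limma-voom, with 9 at an unadjusted p under 0.05, and BG3 dsRNA called 1 higher and 2 lower of 56, beside 5.41% of all genes. These counts describe the neighbourhood and were not tested against the rest of the genome.

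The genes whose pattern over the 18 libraries was most like each member were found by Pearson correlation of log2 CPM among 6806 genes with a mean of at least 5 CPM. The 18 points fall into a few far-apart clusters by source and stage, so r mostly records those steps and is given as a description. The closest to Sema1a were Lim3, CG2186 and CadN (r = 0.998 each), and to Sema2b scrt, CRMP and OtopLa (r = 0.998, 0.997 and 0.997). Eph was closest to PICK1, Aplip1 and side-VII (r = 0.997, 0.997 and 0.996) and Ephrin to stol, fid and px (r = 0.995 each). For PlexB they were CG14314, RSG7 and CG32333 (r = 0.991 each), for PlexA CG16974, FBgn0058178 and S6kII (r = 0.988, 0.987 and 0.986). Sema1b was closest to zf30C, woc and Delta (r = 0.991, 0.990 and 0.986), and Sema2a had the loosest match, with ATPsynbeta, CG8768 and Cisd2 (r = 0.946, 0.945 and 0.944).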

How the data were processed

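The deposited table held raw whole-number counts per gene for 18 libraries; per the submitters' processing notes, reads were handled with cutadapt 1.10, HISAT2 2.0.4 and featureCounts 1.5.0-p3 on dm6. Annotation release, strand setting and treatment of multi-mapping reads are not given in the sources used here. Symbols and lengths came from Ensembl release 115. Counts were filtered with filterByExpr, scaled by TMM and fitted with edgeR 4.0.16 (R 4.3.3) quasi-likelihood models with 2-sided tests, and genes were called where the p, adjusted after Benjamini and Hochberg, was under 0.05, whatever the fold. The fits took the 12 neuron libraries together, the 6 BG3 libraries alone, and all 18 for BG3 against larval neurons. CPM in the text are counts scaled by TMM over 18 libraries; levels compared between genes are CPM per kb of exon union. Intervals cover the fitted model only. The fitting steps were tested on simulated data. Alternatives used DESeq2 1.42.0, limma-voom (limma 3.58.1), other scalings and filters, a replicate block, removal of the gene length trend by lowess, thinning to equal totals, and each library left out; library totals and upper-quartile scaling (2 settings) were added after seeing the data. The members and lists were chosen with earlier results of these data known. Named genes were the 8 members, shep, up to 4 genes of smallest p per list and comparison, genes overlapping a member, and the 3 most correlated with each member; cell type markers without counts, and elav, were named after their values were seen. Sema5c and Toll of the lists matched no counted gene and were not analysed here. Some list results are not reported here. Replicate numbers did not clearly pair libraries.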

Additional observations from a re-analysis of the deposited data

Results flagged for a closer look

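For 3 of the genes every knockdown library lay on one side of its control mean in pupal neurons and on the other side in BG3 cells, and for PlexB this was so in larval neurons too. Sema2a had a log2 fold change of -0.20 on shep RNAi in pupal neurons and 0.13 on shep dsRNA in BG3 cells. PlexB had 0.040 in pupal and 0.071 in larval neurons and -0.37 in BG3 cells. Eph had -0.089 in pupal neurons and 0.096 in BG3 cells. The difference between neurons and BG3 cells was not tested, and none of these values passed its own test after adjustment.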

How the results depend on the processing

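No member was called on shep RNAi in larval neurons or in the stage difference of the RNAi response under any alternative. In the pupal response, leaving out 1 library called 0 to 1 member (Sema2a). In BG3 cells 1 member was called with no filter on low counts (PlexB), with the replicate block (PlexA), with the length trend removed (PlexA), and 0 to 1 when 1 library was left out. Stage calls of members dropped to 3 in control and 2 in RNAi neurons with upper-quartile scaling, and to 1 each (Sema1b) at 2-fold or more. Replicate numbers did not clearly pair the libraries. Same-numbered RNAi and control libraries of a stage correlated between -0.07 and -0.0029 in their deviations from group means. Same-numbered BG3 libraries correlated between 0.02 and 0.04, above differently numbered ones at -0.037 to 0.0067. Whether the BG3 libraries were paired is therefore not settled. Same-numbered pupal and larval control libraries correlated at 0.16, 0.11 and 0.0089, but larval control replicate 3 correlated more with pupal control replicate 2, at 0.056, and same-numbered pupal and larval RNAi libraries lay between -0.015 and 0.029. The block raised the BG3 calls among all genes to 616, against 369 without it, and is no sign of a stronger effect.

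Signs of member values turned as follows (log2). With the length trend removed, pupal RNAi gave Sema2b -0.0031 and PlexB -0.049, BG3 dsRNA Sema1a -0.0052, the control stage comparison Sema1a -0.72, PlexA -0.30, PlexB -0.042 and shep -0.28, the RNAi stage comparison Sema1a -0.68, PlexA -0.43, PlexB -0.12 and Eph -0.011, and BG3 against larval neurons PlexA 0.62. With library totals, the control stage comparison gave Sema1a -0.72, Sema2a -0.029, Sema2b -0.21, PlexA -0.28, PlexB -0.22, Eph -0.27, Ephrin -0.18 and shep -0.24, the RNAi stage comparison Sema1a -0.61, Sema2a -0.25, Sema2b -0.21, PlexA -0.35, PlexB -0.25, Eph -0.32 and Ephrin -0.22, and larval RNAi Sema2a -0.0036. With upper-quartile scaling, the control stage comparison gave Sema1a -0.46, PlexA -0.027 and Eph -0.015 and the RNAi stage comparison Sema1a -0.33, PlexA -0.059 and Eph -0.033. With no filter on low counts, pupal RNAi gave PlexB -0.0014 and BG3 against larval neurons Sema2a -0.048, which was -0.012 with only the groups compared; thinning gave Eph 0.0011 in larval RNAi. In the stage difference of the RNAi response, library totals gave Sema2b 0.0052 and upper-quartile scaling Sema2b 0.042, PlexB 0.013 and Ephrin 0.0037. Leaving out 1 library turned uncalled values only: PlexB -0.089 to 0.12 and Sema2b -0.012 to 0.10 in pupal RNAi, Eph -0.083 to 0.056 and PlexA -0.10 to 0.020 in larval RNAi, Sema1b -0.037 to 0.12 in BG3 dsRNA, Sema1a -0.0050 to 0.16 in the control stage comparison, Sema1a -0.028 to 0.14, Sema2b -0.076 to 0.059, PlexB -0.16 to 0.046 and Ephrin -0.11 to 0.0063 in the stage difference, and Sema2a -0.11 to 0.052 in BG3 against larval neurons. The scaling results follow from the factor applied to each library; the cause of the others was not tested.

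Counts of called genes over the whole table moved too. Pupal RNAi called 672, against 269 at adjusted p under 0.01, 68 at 2-fold or more and 319 to 895 with 1 library left out. Larval RNAi called 32, against 15, 12 and 10 to 52, 76 with no filter and 20 after thinning. The stage difference called 32, against 5, 7 and 13 to 89, 116 with DESeq2 and 102 with no filter. BG3 dsRNA called 369, against 118, 15 and 133 to 466. Low counts limit Sema2b in BG3 cells most, and with 3 libraries a group no exact test could go below 0.1.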
